A study of Mus musculus with 5 samples.

Results

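The cells described here are fibro-adipogenic cells of the mouse tibialis anterior, a muscle of the shin, that carry the markers Smoc2 and Mme. A barcode was taken as one of them when it held at least 200 detected genes, at most 10% mitochondrial UMIs, at least 1 UMI of Pdgfra and a total of at most 1 UMI of Cdh5, Ptprc and Rgs5, genes of endothelial, immune and mural cells. It also had to hold at least 3 of the 5 genes Mme, Smoc2, Col15a1, Podn and Angptl1, more than it held of the Pi16 genes (Pi16, Sema3c, Cd248, Gfpt2, Efemp1) and more than of the Gdf10 genes (Inmt, Gdf10, Penk, Cygb, Cxcl13). The members were thus chosen by measured values, the UMIs of these 19 genes in each barcode. The rule kept 5690 of the 56922 deposited barcodes. They were 11.3% of the 50460 barcodes that passed the filters on genes and mitochondrial UMIs, and 39.2% of the 14523 that also passed the Pdgfra gate. Exchanging the gene lists in the same rule gave 4437 Pi16 cells and 1253 Gdf10 cells, and 3143 gated barcodes belonged to none of the 3 sets.

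The study set frail against control mice, all female C57BL/6 animals of 26 months, with no difference in genotype or drug named. Mice with a frailty index of 0.18 or more formed the frail group (2 libraries, labelled as cases), mice below 0.18 formed the control group (3 libraries), and the series text describes separate mice. Muscle was run on a droplet platform that counts the 3′ ends of RNA molecules by unique molecular identifiers (UMIs). A protocol in the labels describes lysed tissue and sorted nuclei while the series text describes digested tissue and whole cells, so "cell" here means a barcode.

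Fibro-adipogenic cells are the Pdgfra-positive stromal cells of skeletal muscle. They lie between the fibres, build collagen and basement-membrane matrix, send trophic and inflammatory signals to satellite cells and leukocytes, and can turn into fibroblasts or adipocytes. In mouse tissues, Pi16-positive fibroblasts are known from the sheaths around vessels, and Col15a1-positive fibroblasts from the parenchyma. The position of the cells cannot be seen in dissociated muscle, so the word parenchymal was not checked.

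The Smoc2 Mme cells gave 10332746 and 8509427 UMIs in the frail libraries, against 6840912, 5814902 and 15339978 in the control libraries, with a median of 7857 and 7589 UMIs per frail cell, against 8219, 7442 and 7944 per control cell. RNA of other cell types differed between libraries. Summed myofibre markers, none of 12 at 0, stood at 54.4 and 153 CPM, counts scaled to sequencing depth, in frail Smoc2 Mme cells, against 1197, 3491 and 625 CPM in control ones. Summed keratinocyte markers stood at 25.2 and 19.9 CPM in frail cells, against 25.4, 23.2 and 898 CPM in control cells. Control 3 thus stood apart: none of the 9 keratinocyte markers was at 0 in it, against 4 or 5 in each other library. Erythroid markers ranged from 68.1 CPM in control 1 to 1360 CPM in frail 2. The part of these RNAs in the results was not tested, save where a value is given. Among the chosen cells, 3 barcode sequences occurred in more than 1 library.

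General fibro-adipogenic markers were high in the chosen cells, as they were in the Pi16 and Gdf10 cells. The 10 fibro-adipogenic markers, of which the rule used Pdgfra, summed to 50905 and 61146 CPM in frail cells, against 54451, 57292 and 49231 CPM in control cells. Endothelial barcodes, taken as those with UMIs of Cdh5 and Pecam1 and none of Pdgfra or Ptprc, held 3712 to 4997 CPM of the same markers. Pi16 cells held 36727 to 47378 CPM of them and Gdf10 cells 43265 to 54163 CPM, so these markers do not test the Smoc2 Mme label. Smoc2, a secreted calcium-binding matrix protein and part of the rule, had 4112 and 3691 CPM in frail cells, against 4244, 4018 and 4169 CPM in control cells. Mme, the membrane metalloendopeptidase neprilysin, is part of the rule too. It had 307 and 344 CPM in frail cells, against 319, 372 and 317 CPM in control cells. At the edge of the rule, 103 chosen cells of frail 1 held exactly 3 of the 5 genes, with a median of 5881 UMIs. Just outside it, 36 gated barcodes of frail 1 held 2 of the 5 and fewer of each other list, with a median of 4658 UMIs. Many more, 615 in frail 1 and 448 to 936 in the other libraries, held 3 or more of the 5 but at least as many of another list. Among the chosen cells, from 31.6% in frail 1 to 51.1% in frail 2 held exactly 3 of the Gdf10 genes.

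Most of the basement-membrane list, with 9 of 15 genes, stood higher in the chosen cells than in both the Pi16 and the Gdf10 cells, as did Kcnk2, Hsd11b1 and Gfra1. In this count and the list counts below, a gene stood higher or lower when edgeR's adjusted p was under 0.05 against each of the other sets. All these values come from the cells that the rule divided, so they describe that division and the calls are no independent test. The Pi16 cells were deeper (medians of 8991 to 10367 UMIs per library) and the Gdf10 cells shallower (5904 to 6630 UMIs). At an adjusted p under 0.05 in edgeR, 919 of 13479 genes stood higher in the chosen cells than in both other sets (6.82%) and 935 lower (6.94%). Those shares over all genes stand beside each list count below, and nothing else is read from them. The genes named next stood on 1 side of both other sets in all 5 libraries unless said otherwise.

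Kcnk2, a mechanosensitive potassium channel, averaged 76.7 ± 14.6 CPM in Smoc2 Mme cells, 9.29 ± 3.55 CPM in Pi16 cells and 6.33 ± 5.66 CPM in Gdf10 cells (SD, n = 5 libraries each, as for the other means of cell sets). Hsd11b1, which regenerates active glucocorticoid inside cells, averaged 481 ± 122 CPM in Smoc2 Mme cells, 78.5 ± 31.4 CPM in Pi16 cells and 74.6 ± 27.7 CPM in Gdf10 cells. Gfra1, the receptor that binds GDNF and presents it to Ret, averaged 141 ± 25.9 CPM in Smoc2 Mme cells, 20.8 ± 9.36 CPM in Pi16 cells and 27.1 ± 9.23 CPM in Gdf10 cells. A channel, a steroid enzyme and a growth factor receptor were thus among the leading genes. Lifr, the receptor for leukaemia inhibitory factor, averaged 434 ± 69.6 CPM in Smoc2 Mme cells, 94.1 ± 34.6 CPM in Pi16 cells and 127 ± 42.6 CPM in Gdf10 cells. Further higher genes by the fixed rule were Sorl1, Vwa1, Trf, P2ry1, Fbln7, Plin2 and Col6a6. P2ry1, an ADP receptor, averaged 103 ± 9.84 CPM in Smoc2 Mme cells, 9.401 ± 3.17 CPM in Pi16 cells and 24.1 ± 7.27 CPM in Gdf10 cells. Plin2, which coats lipid droplets, averaged 276 ± 139 CPM in Smoc2 Mme cells, 66.6 ± 16.4 CPM in Pi16 cells and 76.3 ± 33.2 CPM in Gdf10 cells.

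**Figure D1:**
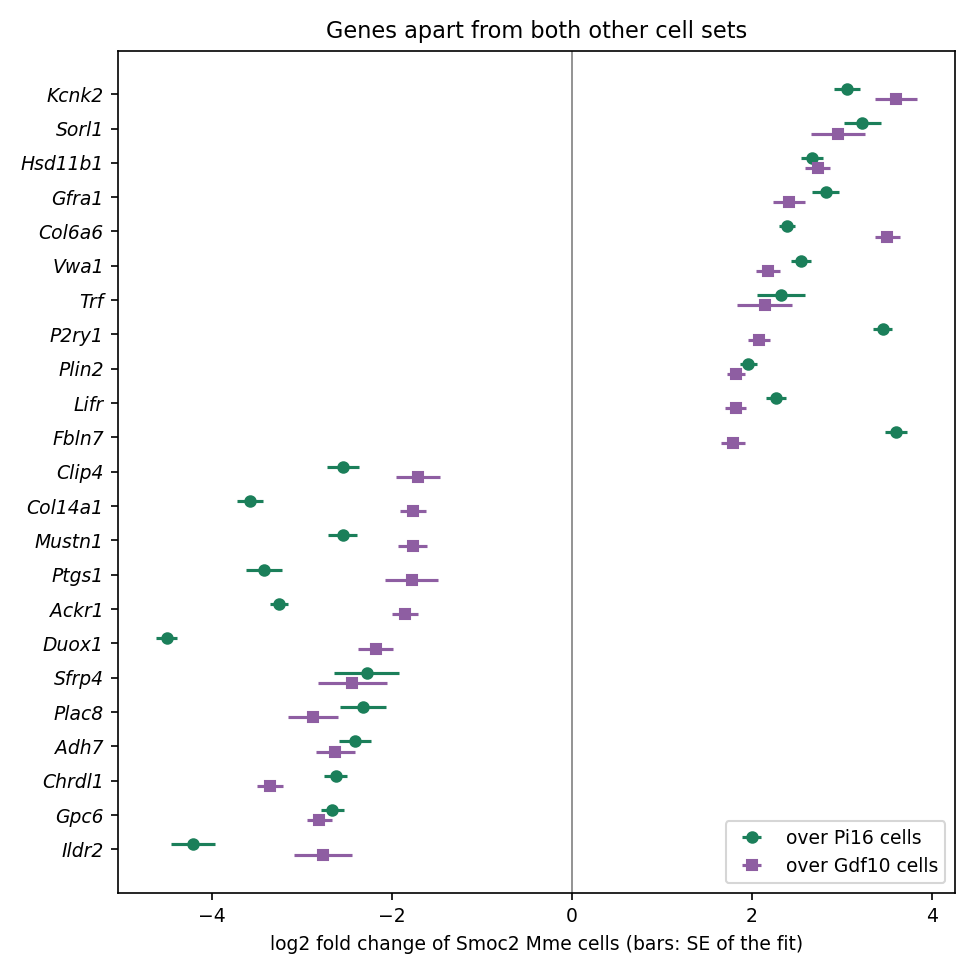
Log2 fold change with its standard error (x axis) of 23 genes named by the rule (y axis), for Smoc2 Mme cells over Pi16 cells and over Gdf10 cells, from UMI counts summed per library (n = 5). The 11 higher genes lie right of 0 and the 12 lower genes left of it for both sets, as the naming rule requires; Duox1 stands at -4.50 over Pi16 cells.

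The basement membrane is the thin sheet of collagen IV, laminin, nidogen and perlecan that wraps each muscle fibre. Of 15 such genes, 9 stood higher in the chosen cells than in both other sets and 2, Lamb2 and Npnt, lower. By the same edgeR calls, 6.82% of all genes stood higher and 6.94% lower. Col4a1, a chain of collagen IV, averaged 2229 ± 321 CPM in Smoc2 Mme cells, 540 ± 133 CPM in Pi16 cells and 712 ± 139 CPM in Gdf10 cells. Hspg2, the core protein of perlecan, averaged 748 ± 106 CPM in Smoc2 Mme cells, 259 ± 36.4 CPM in Pi16 cells and 162 ± 20.5 CPM in Gdf10 cells. Lamb1, the laminin beta 1 chain, averaged 490 ± 72.7 CPM in Smoc2 Mme cells, 199 ± 30.98 CPM in Pi16 cells and 44.6 ± 17.8 CPM in Gdf10 cells. Its gap was thus wider against the Gdf10 cells, at 3.43 on the log2 scale, against 1.30 over the Pi16 cells. Nid1, a linker between laminin and collagen IV, did not follow the others. It averaged 1133 ± 126 CPM in Smoc2 Mme cells, 1283 ± 165 CPM in Pi16 cells and 424 ± 53.99 CPM in Gdf10 cells. Lamb2 averaged 186 ± 31.6 CPM in Smoc2 Mme cells, 270 ± 28.2 CPM in Pi16 cells and 305 ± 30.7 CPM in Gdf10 cells.

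**Figure D2:**
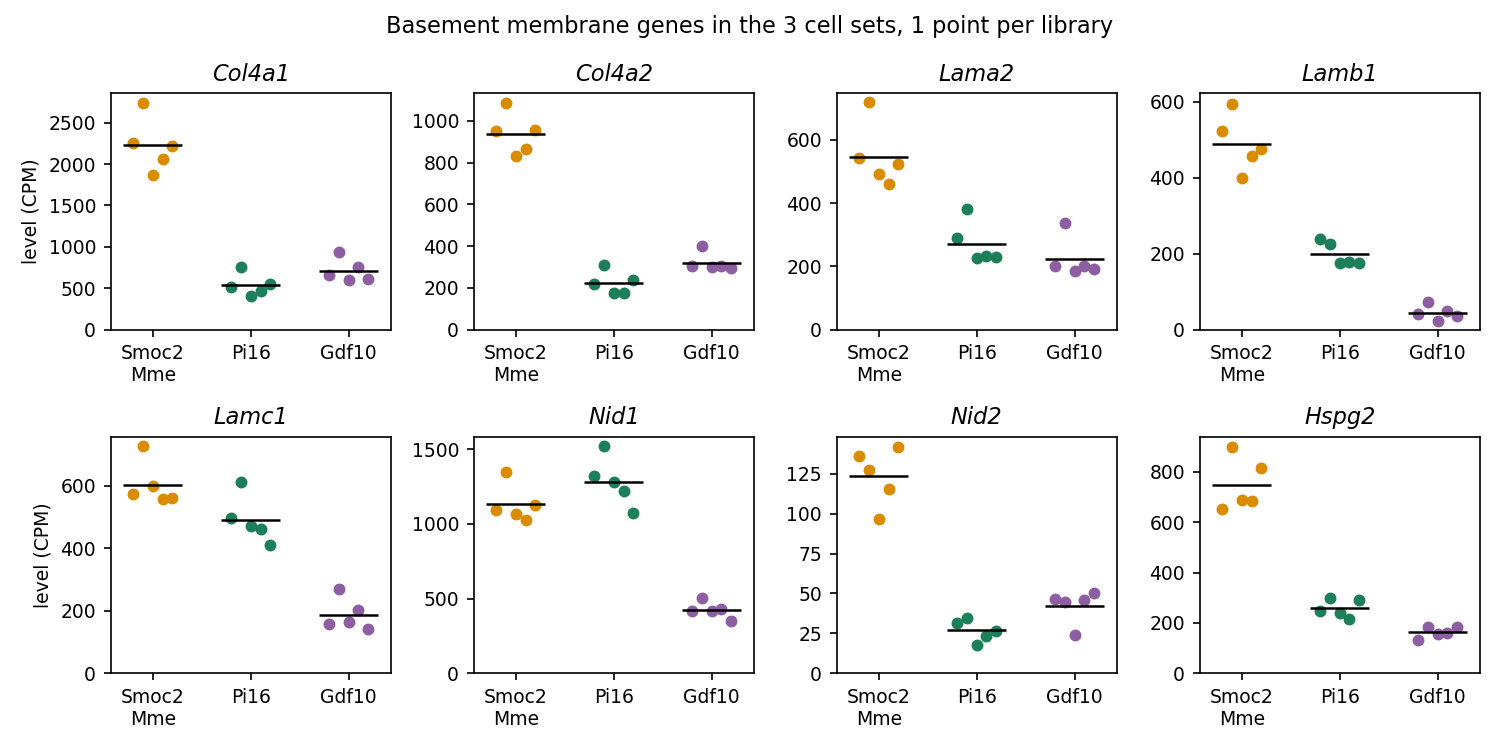
CPM (y axis, linear from 0) of 8 basement-membrane genes in Smoc2 Mme, Pi16 and Gdf10 cells, 1 point per library (left to right the 2 frail and the 3 control libraries) and a line at the mean of the 5. Col4a1 lies between 1872 and 2736 CPM in Smoc2 Mme cells, above every Pi16 and Gdf10 value, while Nid1 overlaps with the Pi16 cells.

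Among fibrillar and fibril-associated collagens, 7 of 12 stood higher in the chosen cells than in both other sets and 1 lower (all genes: 6.82% and 6.94%). Col6a3, a chain of collagen VI, averaged 915 ± 156 CPM in Smoc2 Mme cells, 236 ± 68.8 CPM in Pi16 cells and 306 ± 95 CPM in Gdf10 cells. Col14a1, a fibril-associated collagen, was the exception and averaged 75.7 ± 38 CPM in Smoc2 Mme cells, 864 ± 349 CPM in Pi16 cells and 259 ± 122 CPM in Gdf10 cells. Of 28 matrix proteases, inhibitors and cross-linking enzymes, 12 stood higher than in both sets and 3 lower. Cxcl14, a chemokine, averaged 5706 ± 1013 CPM in Smoc2 Mme cells, 403 ± 50.04 CPM in Pi16 cells and 2092 ± 378 CPM in Gdf10 cells. Its gap was wider over the Pi16 cells, at 3.80 on the log2 scale, than over the Gdf10 cells, at 1.45.

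In the Wnt list and in the IGF and trophic list, more genes stood lower than higher. Of 16 Wnt genes, none stood higher than in both other sets and 8 lower (all genes: 6.82% and 6.94%). Sfrp4, a secreted Wnt antagonist, averaged 33.1 ± 19.8 CPM in Smoc2 Mme cells, 156 ± 48.2 CPM in Pi16 cells and 193 ± 107 CPM in Gdf10 cells. Of 20 genes of the IGF and trophic list, 1 stood higher and 6 lower than in both. Igfbp5, which binds IGF, averaged 199 ± 66.8 CPM in Smoc2 Mme cells, 5606 ± 2215 CPM in Pi16 cells and 555 ± 183 CPM in Gdf10 cells. Fst, the activin and myostatin binder follistatin, averaged 103 ± 29.4 CPM in Smoc2 Mme cells, 130 ± 16.3 CPM in Pi16 cells and 460 ± 122 CPM in Gdf10 cells. The gap in Igfbp5 was thus wider against the Pi16 cells and that in Fst against the Gdf10 cells. Of 12 complement genes, none stood higher and 4 lower than in both. C3, the central component of the cascade, averaged 1335 ± 235 CPM in Smoc2 Mme cells, 2447 ± 343 CPM in Pi16 cells and 1683 ± 336 CPM in Gdf10 cells.

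Several signalling and enzyme genes were also low in the chosen cells. Ildr2, a membrane protein of the immunoglobulin family, averaged 6.01 ± 2.42 CPM in Smoc2 Mme cells, 118 ± 41.8 CPM in Pi16 cells and 42.3 ± 18.8 CPM in Gdf10 cells. Duox1, an NADPH oxidase that makes hydrogen peroxide, averaged 3.23 ± 1.05 CPM in Smoc2 Mme cells, 74.7 ± 23.5 CPM in Pi16 cells and 15.6 ± 7.09 CPM in Gdf10 cells. Ackr1, a scavenger receptor for chemokines, averaged 9.64 ± 1.79 CPM in Smoc2 Mme cells, 93.96 ± 17.4 CPM in Pi16 cells and 34.4 ± 9.19 CPM in Gdf10 cells. Ptgs1, the constitutive cyclooxygenase, averaged 7.56 ± 3.37 CPM in Smoc2 Mme cells, 87.1 ± 36.5 CPM in Pi16 cells and 26.8 ± 9.71 CPM in Gdf10 cells. The other lower genes were Gpc6, Chrdl1, Adh7, Plac8, Sfrp4, Mustn1, Col14a1 and Clip4. All 24 cytosolic ribosomal protein genes stood lower than in both sets (all genes: 6.94%). Their median log2 fold change was -0.73 over Pi16 cells and -0.70 over Gdf10 cells.

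Of 25 cytokine, chemokine and inducer genes, 5 stood higher and 3 lower in the chosen cells than in both other sets (all genes: 6.82% and 6.94%). Il6, the cytokine interleukin-6, averaged 45.6 ± 20.1 CPM in Smoc2 Mme cells, 117 ± 51.6 CPM in Pi16 cells and 136 ± 63.9 CPM in Gdf10 cells. Ptgs2, the inducible cyclooxygenase, averaged 98.3 ± 47.6 CPM in Smoc2 Mme cells, 412 ± 173 CPM in Pi16 cells and 109 ± 53.03 CPM in Gdf10 cells. Its level in the chosen cells was thus near that of the Gdf10 cells and below that of the Pi16 cells. Ccl11, the eosinophil chemokine eotaxin, averaged 1620 ± 283 CPM in Smoc2 Mme cells, 795 ± 191 CPM in Pi16 cells and 555 ± 171 CPM in Gdf10 cells.

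The share of the chosen cells did not differ between frail and control mice beyond the spread between libraries. They made up 46.2% and 38.4% of gated Pdgfra barcodes in frail libraries, against 34.8%, 30.8% and 42.2% in control libraries. The frail share lay inside the control range for frail 2 and above it for frail 1, whose 95% Wilson interval ran from 44.4% to 48.1% and covers counting error only. The mean was 42.3 ± 5.58% in frail mice (SD, n = 2) and 35.9 ± 5.75% in control mice (SD, n = 3), a difference of 6.37 percentage points, with p = 0.4 by a two-sided exact permutation test. With 10 possible assignments of 2 against 3 libraries, no exact p here can be lower than 0.1. With every cell thinned to 3000 UMIs the difference was 2.87 points (exact permutation p = 0.7). Of all retained barcodes they made up 13.5% and 10.1% in frail libraries, against 9.29%, 7.44% and 15.1% in control libraries. That difference of 1.19 points (exact permutation p = 0.7) turned to -0.51 without frail 1 and to -0.40 without control 2.

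Pi16 cells made up 25.8 ± 3.92% of gated barcodes in frail mice (SD, n = 2) and 34.8 ± 7.13% in control mice (SD, n = 3), with p = 0.2 by the exact permutation test. Gdf10 cells made up 9.45 ± 0.571% in frail mice (SD, n = 2) and 8.67 ± 5.44% in control mice (SD, n = 3), with p = 1.0 by the exact permutation test.

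**Figure D3:**
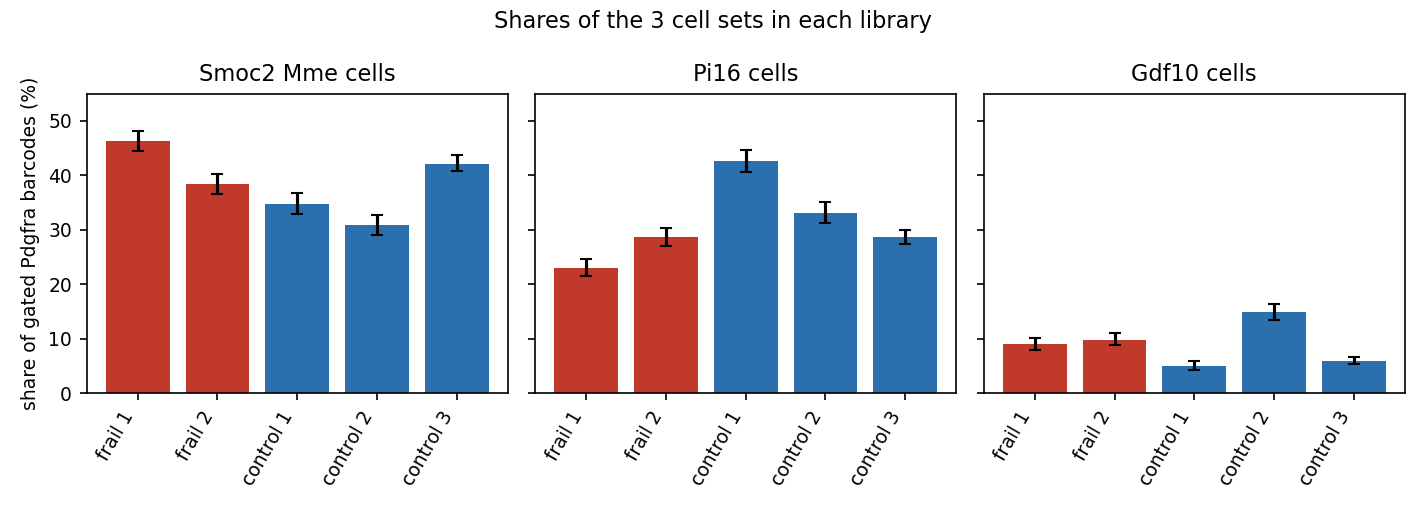
Share of gated Pdgfra barcodes (percent, y axis) that fell in the Smoc2 Mme, Pi16 and Gdf10 sets in each of the 2 frail and 3 control libraries; bars are shares and error lines 95% Wilson intervals. Smoc2 Mme shares run from 38.4% to 46.2% in frail libraries and from 30.8% to 42.2% in control libraries, and overlap.

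Within the chosen cells, 1 gene rose and 1 fell in frail mice among 13794 tested (2 genes, 0.0145%) by edgeR's quasi-likelihood test with Benjamini-Hochberg adjustment. The tested values were UMI counts summed per library. DESeq2, run on the same counts, called 57 of 15701 genes (0.363%), 7 higher and 50 lower in frail mice. The edgeR count depended on single libraries: it was 17 without frail 1, 4 without frail 2, 3 without control 1 and 0 without control 3. Where no test is named, adjusted p-values of the frail comparison are edgeR's, over all 13794 genes, and fold changes are log2 of frail over control.

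Aldh1l1 rose. It encodes the cytosolic 10-formyltetrahydrofolate dehydrogenase of folate metabolism (ENSMUSG00000030088, chromosome 6, 90486427 to 90600203, plus strand in GRCm38). It had 20.9 and 18.5 CPM in frail cells, against 2.99, 1.95 and 3.997 CPM in control cells, or 19.7 ± 1.69 CPM in frail mice (SD, n = 2) and 2.98 ± 1.02 CPM in control mice (SD, n = 3). Both frail libraries stood far above all control libraries (log2 fold change 2.65 ± 0.28 (SE), adjusted p = 0.0156, edgeR). In the remaining gated cells, where edgeR called 4 of 15088 genes (0.0265%), its log2 fold change was 3.26 (adjusted p = 0.00359, edgeR). Endothelial barcodes held it too, at 21.6 and 53.4 CPM in frail endothelial barcodes, against 27.9, 27.9 and 28.5 CPM in control ones, and there the groups overlapped. The annotation places 2 other genes, the lincRNA Gm45901 and Gm44236, on the same strand inside its span, so reads of these cannot be told apart where exons overlap. The call was lost without control 3 (log2 fold change 2.98, edgeR adjusted p = 0.143) and with cells thinned to 3000 UMIs (log2 fold change 2.20, edgeR adjusted p = 0.115). Over all alternatives run, the log2 fold change ran from 2.20 to 2.99.

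None of the other 12 folate one-carbon genes passed the test. Of the 13 in all, 6 were higher and 7 lower in frail mice, with a median log2 fold change of -0.04. Mthfd1, the cytosolic enzyme that supplies formyltetrahydrofolate, had 8.01 and 9.32 CPM in frail cells, against 11.8, 9.56 and 12.7 CPM in control cells, and its groups did not overlap. Shmt2, the mitochondrial serine hydroxymethyltransferase, had 14.9 and 19.7 CPM in frail cells, against 21.1, 17.2 and 20.2 CPM in control cells, with overlap.

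Tnfaip3 fell. It encodes A20, a ubiquitin-editing enzyme that restrains NF-kappa-B signalling and is itself induced by NF-kappa-B (ENSMUSG00000019850, chromosome 10, 19000910 to 19015657, minus strand in GRCm38). It had 13 and 14.04 CPM in frail cells, against 45.3, 46.4 and 44.4 CPM in control cells, so that each control library held over 3 times the level of either frail one (log2 fold change -1.75 ± 0.17 (SE), adjusted p = 0.0156, edgeR). In the remaining gated cells the log2 fold change was -1.06 and did not pass (edgeR adjusted p = 0.361). Endothelial barcodes held 11.5 and 17.5 CPM in frail endothelial barcodes, against 19.6, 15.8 and 40.4 CPM in control ones, where the groups overlapped. Without control 3 the log2 fold change was -1.76 and the edgeR adjusted p = 0.143.

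Il6 had 24.9 and 26.8 CPM in frail cells, against 66.3, 53.5 and 69.6 CPM in control cells, with the frail libraries well below all control libraries. It did not pass (log2 fold change -1.29 ± 0.18 (SE), adjusted p = 0.12, edgeR), but DESeq2 called it (DESeq2 adjusted p = 9.5e-06). In the remaining gated cells the log2 fold change was -1.24. Endothelial barcodes held 10.02 and 7.02 CPM in frail endothelial barcodes, against 18.2, 16 and 20.7 CPM in control ones. The top 5% of chosen cells held 75.3% and 80.7% of the Il6 UMIs in frail libraries, against 53.3%, 60.6% and 57.4% in control ones. DESeq2 also called other genes named below that did not pass edgeR's test, among them Ptgs2, H2-Ab1, Cd74, C1qa, Plau and Plin2. It did not call Cxcl1, Cxcl2 or Nfkbia, among others.

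Tnfaip3, Il6, Nfkbia and Cxcl10 are known targets of NF-kappa-B, a factor that binds a degenerate decamer. One form of that decamer, GGG followed by any 3 bases and TTCC, was searched on both strands in the 250 bases before each start in the RefSeq promoter table for GRCm38.p6. It occurred in 1527 of 32851 promoters (4.65%) and in 6 of the 18 members of the cytokine list that the table holds (33.3%). The members with a match were Csf1, Il6, Cxcl1, Cxcl2, Cxcl10 and Nfkbia. Ptgs2, Tnfaip6, Icam1, Ccl8, Ptx3 and Cxcl9, members that were lower in frail cells, held no match, while Cxcl10, whose groups overlapped, did. The list was not drawn at random and Tnfaip3 is not in it, so the shares were not tested against each other. A match describes the letters and is no evidence of binding. Only genes with a match are shown, so the sequences do not link a match to a fall. The 120 bases before the start are shown for Tnfaip3, Il6, Nfkbia and Cxcl10, all of which held a match. They run 5′ to 3′ on the strand of the gene and let the matches (capitals) be seen beside the values. The windows are chr10:19015411-19015530 (minus strand), chr5:30012994-30013113 (plus strand), chr12:55492648-55492767 (minus strand) and chr5:92348890-92349009 (minus strand). The match of Tnfaip3 lies 3 to 12 bases before the start, that of Il6 35 to 44, that of Nfkbia 20 to 29 and that of Cxcl10 95 to 104. Starts are those of RefSeq, and that of Tnfaip3 lies downstream of the start in the gene annotation used for its span above, so its window falls inside that span.
Tnfaip3: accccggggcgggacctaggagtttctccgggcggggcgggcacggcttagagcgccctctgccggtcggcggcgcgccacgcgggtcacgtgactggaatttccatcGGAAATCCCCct
Il6: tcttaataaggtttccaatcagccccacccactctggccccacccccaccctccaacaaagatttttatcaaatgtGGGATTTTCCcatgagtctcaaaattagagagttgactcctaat
Nfkbia: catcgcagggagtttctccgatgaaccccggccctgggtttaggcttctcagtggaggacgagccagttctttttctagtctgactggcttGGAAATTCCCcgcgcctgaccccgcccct
Cxcl10: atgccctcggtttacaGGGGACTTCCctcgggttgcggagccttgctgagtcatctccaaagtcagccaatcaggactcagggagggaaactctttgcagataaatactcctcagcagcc
In Tnfaip3 and Nfkbia the capitals spell the reverse complement of the searched letters, in Il6 and Cxcl10 the letters themselves.

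Cytokine, chemokine and inducer genes were lower in frail mice as a list, although none of them passed edgeR's test. Of 26 tested, 23 were lower, against 48.7% of all genes, and 3 higher, and the median log2 fold change was -0.62, against 0.01 over all genes. In 13 the frail libraries lay below every control library without overlap, against 9.14% of all genes, and 11 had an unadjusted p under 0.05, against 4.08% of all genes. The list median stayed between -0.78 and -0.44 under the 10 alternatives run for it. Other measures moved with it. The 10 macrophage markers summed to 76.2 and 125 CPM in frail Smoc2 Mme cells, against 226, 205 and 196 CPM in control ones. The median share of mitochondrial UMIs per Smoc2 Mme cell was 2.65% and 2.81% in frail libraries, against 2.33%, 2.101% and 2.54% in control libraries, without overlap. The list median was -0.62 in cells of at most 5% mitochondrial UMIs. It was -0.67 in cells with no UMI of the macrophage markers, a split added after seeing the data. That split left out 38.7% and 57.4% of frail Smoc2 Mme cells, against 75.5%, 77.4% and 59.1% of control ones. Cells without such a UMI can still hold macrophage RNA. Whether macrophage RNA or the mitochondrial share had a part in the lower list was not tested.

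Neutrophil chemokines and Ptgs2 were among the lower genes. Cxcl1, a neutrophil chemokine, had 834 and 660 CPM in frail cells, against 1329, 1135 and 1106 CPM in control cells (log2 fold change -0.67 ± 0.21 (SE), adjusted p = 0.996, edgeR). Cxcl2, its close relative, had 24.3 and 14.96 CPM in frail cells, against 42.1, 26.9 and 41.8 CPM in control cells (log2 fold change -0.91). Ptgs2, which makes prostaglandin precursors, had 62.4 and 52.01 CPM in frail cells, against 172, 134 and 99.2 CPM in control cells (log2 fold change -1.23 ± 0.24 (SE), adjusted p = 0.409, edgeR). All 3 genes were apart between the groups, that is, no frail library overlapped a control library. Of the monocyte chemokines, Ccl2 had 228 and 171 CPM in frail cells, against 271, 362 and 314 CPM in control cells, apart between the groups. Ccl7 had 276 and 133 CPM in frail cells, against 375, 467 and 358 CPM in control cells, likewise apart, with the lowest value in frail 2. Ccl8 had 36.8 and 21.1 CPM in frail cells, against 53.1, 39.7 and 45.7 CPM in control cells, also apart.

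The T-cell chemokines and Ptx3 varied more within the frail group. Cxcl9, induced by interferon gamma, had 53.1 and 11.6 CPM in frail cells, against 70.2, 58.8 and 87.4 CPM in control cells, so frail 1 lay near the controls and frail 2 far below. Cxcl10 had 214 and 79.9 CPM in frail cells, against 206, 254 and 460 CPM in control cells, with overlap. Ptx3, the secreted pattern-recognition protein pentraxin 3, had 33.9 and 5.87 CPM in frail cells, against 35.3, 59.3 and 50.2 CPM in control cells, where frail 1 lay just under the lowest control (log2 fold change -1.27 ± 0.81 (SE), adjusted p = 0.999, edgeR).

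Inducible regulators ran the same way. Nfkbia, the inhibitor of NF-kappa-B, had 538 and 389 CPM in frail cells, against 654, 716 and 699 CPM in control cells. Nfkbiz, an atypical member of the same family, had 343 and 384 CPM in frail cells, against 498, 601 and 614 CPM in control cells. Tnfaip6, a hyaluronan-binding protein of inflamed stroma, had 163 and 145 CPM in frail cells, against 245, 275 and 197 CPM in control cells. Icam1, the leukocyte adhesion molecule, had 220 and 258 CPM in frail cells, against 329, 413 and 342 CPM in control cells. All 4 were apart, with log2 fold changes of -0.57, -0.65, -0.64 and -0.60. The chemokines of highest CPM in these cells overlapped between the groups. Cxcl14 had 6600 and 4803 CPM in frail cells, against 6798, 6987 and 4977 CPM in control cells, and Ccl11, eotaxin, had 1711 and 1959 CPM in frail cells, against 1646, 1987 and 1260 CPM in control cells, both with overlap. Il33, an alarmin, had 192 and 141 CPM in frail cells, against 137, 160 and 101 CPM in control cells, with overlap.

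**Figure D4:**
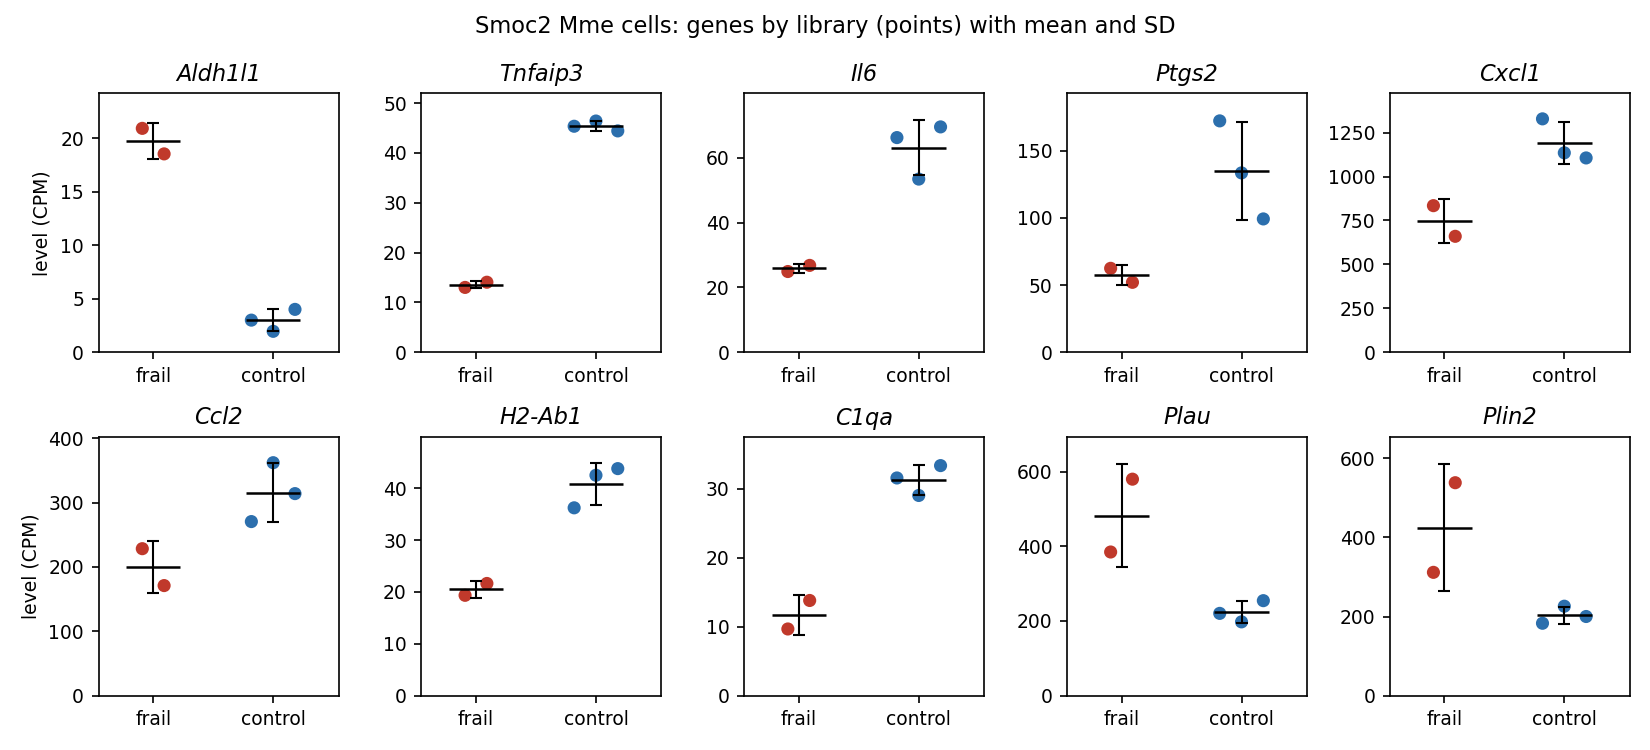
CPM in Smoc2 Mme cells (y axis) per library for 10 genes, frail libraries left of control libraries, with the mean and SD of each group (n = 2 and n = 3). Plau lies at 385 and 580 CPM in frail libraries, against 198 to 254 CPM in control libraries; Aldh1l1 and Tnfaip3 passed edgeR's test and the others did not.

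MHC class II genes, which present antigen on professional antigen-presenting cells, were lower in frail mice in 6 of 6 genes tested, against 48.7% of all genes, and all 6 without overlap, against 9.14% of all genes. None passed edgeR's test. Their median log2 fold change was -0.90. H2-Ab1 had 19.3 and 21.6 CPM in frail cells, against 36.2, 42.5 and 43.8 CPM in control cells (log2 fold change -0.997 ± 0.18 (SE), adjusted p = 0.272, edgeR). Cd74, the invariant chain, had 48.5 and 60.2 CPM in frail cells, against 92.03, 96.3 and 116 CPM in control cells (log2 fold change -0.91). Endothelial barcodes held 130 and 26.02 CPM in frail endothelial barcodes, against 43.4, 48.6 and 55.5 CPM in control ones of H2-Ab1, each above the level in the chosen cells of the same library.

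Macrophage genes ran the same way. C1qa, a complement gene of macrophages, had 9.67 and 13.8 CPM in frail cells, against 31.6, 29.04 and 33.4 CPM in control cells (log2 fold change -1.42 ± 0.21 (SE), adjusted p = 0.12, edgeR), and in endothelial barcodes 18.5 and 26.8 CPM in frail endothelial barcodes, against 33.5, 36.9 and 34.4 CPM in control ones. The endothelial level of C1qa was above that of the chosen cells in 4 libraries and close to it in control 3, and whether its UMIs in the chosen cells were expression or background RNA was not tested. F13a1, C1qb, C1qc and Ccl6 were also apart and lower in frail cells, with log2 fold changes of -2.20, -1.42, -1.41 and -1.72. The 10 macrophage markers, none at 0 in the chosen cells of any library, summed in endothelial barcodes to 135 and 193 CPM in frail libraries, against 227, 232 and 192 CPM in control libraries, which overlap. Cells with a UMI of these markers made up 38.7% and 57.4% of frail Smoc2 Mme cells, against 75.5%, 77.4% and 59.1% of control ones. They made up 32.04% and 43.3% of frail endothelial barcodes (medians of 4932 and 3879 UMIs), against 63.7%, 67.5% and 47.9% of control ones (4656.5, 4967 and 4311 UMIs). Leaving them out thus removed unequal parts of the groups. In the chosen cells with no UMI of these 10 markers, a split added after seeing the data, the median of the MHC class II list was -0.85 and edgeR called 2 genes.

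The genes higher in frail cells that did not pass edgeR's test, taken by smallest p, had varied roles. Plau, the urokinase plasminogen activator, had 385 and 580 CPM in frail cells, against 220, 198 and 254 CPM in control cells (log2 fold change 1.10 ± 0.22 (SE), adjusted p = 0.409, edgeR). Plin2, the lipid droplet protein, had 312 and 538 CPM in frail cells, against 183, 226 and 200 CPM in control cells (log2 fold change 1.07 ± 0.24 (SE), adjusted p = 0.534, edgeR). Chp2, a calcium-binding partner of sodium-proton exchangers, had 32.7 and 54.9 CPM in frail cells, against 18.6, 12.04 and 18.97 CPM in control cells (log2 fold change 1.39 ± 0.26 (SE), adjusted p = 0.409, edgeR). In all 3 genes both frail libraries stood above every control library, and frail 2 was the higher one. Chp2 was also apart in endothelial barcodes, at 41.1 and 30.5 CPM in frail ones, against 15.1, 6.68 and 26.5 CPM in control ones. In frail 1 and control 3 that was above the chosen cells. Whether the UMIs of Chp2 in the chosen cells were expression or background RNA was not tested. Pdzd2, a PDZ-domain protein, had 153 and 170 CPM in frail cells, against 94.3, 96.3 and 109 CPM in control cells (log2 fold change 0.70). Myh11 and Lmod1, genes of smooth muscle, had log2 fold changes of 0.77 and 1.10. Myh11 stood at 320 and 164 CPM in frail endothelial barcodes, against 208, 189 and 245 CPM in control ones, above the chosen cells in each library. The endothelial barcodes were not filtered on Rgs5, and their summed mural markers stood at 1967 to 3645 CPM. Their Myh11 thus need not be background RNA. In chosen cells without macrophage UMIs the log2 fold change of Myh11 was -0.027. The summed mural markers, none of 8 at 0, stood at 549 and 321 CPM in frail Smoc2 Mme cells, against 228, 314 and 305 CPM in control ones.

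Basement-membrane genes were higher in frail mice as a list, by small amounts. All 15 basement-membrane genes had a log2 fold change above 0, against 51.3% of all genes, with a median of 0.19. In 4 the frail libraries lay above every control library, against 8.93% of all genes, and none passed edgeR's test. Lama2, the laminin alpha 2 chain whose loss causes congenital muscular dystrophy, had 574 and 760 CPM in frail cells, against 516, 485 and 556 CPM in control cells (log2 fold change 0.36 ± 0.20 (SE), adjusted p = 0.999, edgeR). Lamb1 had 555 and 627 CPM in frail cells, against 421, 482 and 506 CPM in control cells (log2 fold change 0.33). Col4a1 had 2395 and 2890 CPM in frail cells, against 1970, 2172 and 2365 CPM in control cells, with the lowest frail value just above the highest control value. Without TMM factors Col4a1 (2372 CPM in frail 1, 2430 CPM in control 3) and Lama2 (569 and 572 CPM) overlapped between the groups. Outside the list, the collagen IV chain Col4a3 and its partner Col4a4, added after its values were seen, were apart too. Col4a3 had 22.4 and 25.8 CPM in frail cells, against 11.7, 10.3 and 14.6 CPM in control cells (log2 fold change 0.96 ± 0.21 (SE), adjusted p = 0.439, edgeR). Col4a4 had 69.9 and 88.4 CPM in frail cells, against 40.9, 51.7 and 55 CPM in control cells (log2 fold change 0.68 ± 0.18 (SE), adjusted p = 0.9, edgeR).

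Fibrillar and fibril-associated collagens did not separate the groups. Of 12, 7 were higher and 5 lower, none apart, with a median of 0.05. Col3a1, the collagen of loose connective tissue, had 2781 and 2375 CPM in frail cells, against 2465, 1620 and 3075 CPM in control cells. Proteoglycans and matrix glycoproteins numbered 14 higher and 13 lower (median 0.01). Tnc, tenascin C of injured tissue, had 1.86 and 5.18 CPM in frail cells, against 11.2, 8.32 and 6.72 CPM in control cells (log2 fold change -1.32 ± 0.43 (SE), adjusted p = 0.999, edgeR). Of the proteases and their partners, 15 were higher and 13 lower (median 0.02). Adamts4, an aggrecan-cleaving protease, had 17.3 and 18.98 CPM in frail cells, against 34.9, 28.7 and 36.3 CPM in control cells (log2 fold change -0.88 ± 0.19 (SE), adjusted p = 0.439, edgeR). Mmp3, stromelysin 1, had 44.6 and 36.01 CPM in frail cells, against 115, 74.4 and 57.03 CPM in control cells (log2 fold change -1.02). Both proteases were apart and lower in frail cells. The top 5% of cells held 83.1% and 87.2% of the Mmp3 UMIs in frail libraries, against 77.3%, 93.1% and 68.9% in control ones.

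Of 6 PDGF genes, 5 were higher, against 51.3% of all genes, and 1 lower, with a median of 0.37, the highest of the 22 lists. Pdgfb, a PDGF ligand, had 8.31 and 9.32 CPM in frail cells, against 2.99, 5.13 and 4.57 CPM in control cells, and its levels were far below those of endothelial barcodes, which held 417 and 568 CPM in frail endothelial barcodes, against 313, 394 and 305 CPM in control ones. Pdgfrb, a PDGF receptor, had 170 and 268 CPM in frail cells, against 164, 117 and 195 CPM in control cells, with overlap. The TGF-beta and BMP list held 13 higher and 9 lower genes (median 0.05), and the IGF and trophic list 11 higher and 9 lower (median 0.09). Igfbp4, an IGF binding protein, had 831 and 660 CPM in frail cells, against 968, 1141 and 862 CPM in control cells, apart and lower. Gas6, a ligand of the TAM receptors, had 191 and 182 CPM in frail cells, against 207, 329 and 226 CPM in control cells, apart and lower. The Wnt list held 8 higher and 8 lower genes (median -0.0017). Wnt11 had 30.97 and 63.4 CPM in frail cells, against 26.8, 27.1 and 26.3 CPM in control cells, with frail 2 far above the other libraries. Complement genes numbered 7 higher and 5 lower (median 0.02).

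Adipogenic and lipid genes were higher in 9 of 14, with a median of 0.13 that was -0.034 without frail 2, and 3 were apart and higher (all genes: 51.3% higher, 8.93% apart and higher). Cebpb, an early adipogenic transcription factor, had 811 and 1048 CPM in frail cells, against 652, 624 and 583 CPM in control cells (log2 fold change 0.59 ± 0.20 (SE), adjusted p = 0.999, edgeR). Apod, apolipoprotein D, had 4847 and 5397 CPM in frail cells, against 6805, 6272 and 2868 CPM in control cells, with overlap. Adiponectin, made by mature adipocytes, gave 0 and 1 UMI in frail cells, against 0, 1 and 0 in control cells, so Adipoq was not detectable beyond single molecules at this depth.

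Stress and immediate early genes leaned lower (all genes: 48.7% lower, 9.14% apart and lower), and none passed edgeR's test. Of 16 heat shock genes, 14 were lower (median -0.22), but the median was -0.65 without frail 1 and 0.020 without frail 2. Bag3, a co-chaperone, had 110 and 93.5 CPM in frail cells, against 136, 173 and 170 CPM in control cells (log2 fold change -0.65 ± 0.19 (SE), adjusted p = 0.911, edgeR). Metallothioneins and antioxidants were lower in 14 of 17 (median -0.23). Sod2, the mitochondrial superoxide dismutase, had 105 and 75.4 CPM in frail cells, against 143, 180 and 131 CPM in control cells (log2 fold change -0.74 ± 0.21 (SE), adjusted p = 0.911, edgeR). Both genes were apart. Mt2, a metallothionein, had 1175 and 824 CPM in frail cells, against 1450, 2105 and 1378 CPM in control cells, apart as well. Of 26 immediate early genes, 21 were lower (median -0.12), among them Nr4a3, an orphan nuclear receptor, with 21.9 and 15.3 CPM in frail cells, against 34.4, 33.1 and 28.2 CPM in control cells. Fos, with 6052 and 6242 CPM in frail cells, against 7216, 6858 and 5771 CPM in control cells, showed overlap. The integrated stress response list held 3 higher and 8 lower genes (median -0.23); Trib3, a pseudokinase of that response, had 10.5 and 25.1 CPM in frail cells, against 9.88, 9.92 and 6.03 CPM in control cells, with frail 2 alone far from the controls.

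Ribosomal protein genes were lower in 23 of 24, against 48.7% of all genes (median -0.22). Of the 24, 5 were apart and lower, against 9.14% of all genes, and 1 apart and higher. Rplp1, a stalk protein, had 2451 and 2277 CPM in frail cells, against 3573, 3442 and 2607 CPM in control cells (log2 fold change -0.44 ± 0.22 (SE), adjusted p = 0.999, edgeR). Nuclear genes of oxidative phosphorylation were lower in 17 of 19, against 48.7% of all genes (median -0.12). Circadian clock genes were higher in 17 of 18, against 51.3% of all genes (median 0.16). No gene of these 2 lists had an unadjusted p under 0.05 in edgeR. Clock itself had 63.8 and 74.7 CPM in frail cells, against 59.6, 51.7 and 58.1 CPM in control cells, apart by a small step. Interferon response genes had a median of -0.10, which was -0.58 without frail 1 and 0.35 without frail 2, so the direction hung on 1 library. Iigp1, an interferon-inducible GTPase, had 579 and 124 CPM in frail cells, against 351, 322 and 421 CPM in control cells, with frail 1 highest and frail 2 lowest of all libraries. None of these genes passed edgeR's test.

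**Figure D5:**
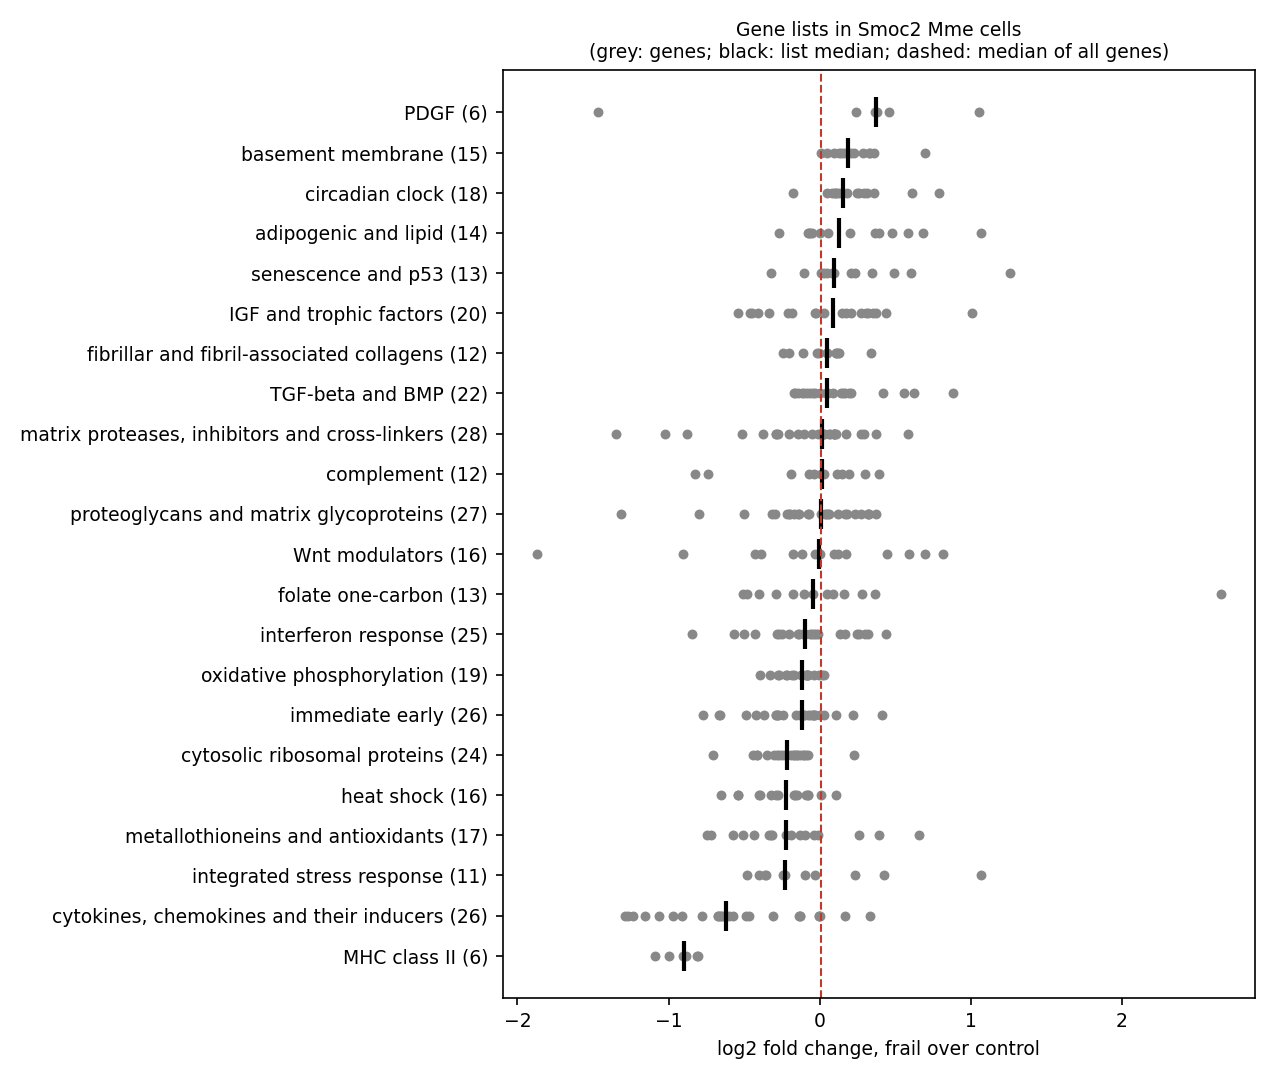
Log2 fold change of frail over control in Smoc2 Mme cells (x axis) of each gene of 22 lists (y axis), with the list median and a dashed line at the median of all genes. The MHC class II and cytokine lists have the lowest medians, -0.90 and -0.62, and the PDGF list the highest, 0.37.

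The senescence and p53 list held 11 higher and 2 lower genes (median 0.09, all genes: 51.3% higher), and none passed edgeR's test. Cdkn1a, the cell cycle inhibitor p21, had 511 and 443 CPM in frail cells, against 486, 426 and 471 CPM in control cells, with overlap. Cdkn1b, the inhibitor p27, had 94.7 and 115 CPM in frail cells, against 62.9, 70.5 and 73.5 CPM in control cells, apart and higher (log2 fold change 0.60 ± 0.17 (SE), adjusted p = 0.911, edgeR).

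The genes in the title of the series gave little signal in these cells. Gdf15, a stress-induced hormone of the TGF-beta family, had 6.64 and 4.602 CPM in frail cells, against 1.05, 1.59 and 3.87 CPM in control cells. Both frail libraries stood above every control library, but the levels were low and the test did not pass (log2 fold change 1.26 ± 0.50 (SE), adjusted p = 0.999, edgeR). Endothelial barcodes held 32.8 and 14.4 CPM in frail endothelial barcodes, against 12.5, 16.8 and 18.9 CPM in control ones, above the chosen cells in each library. Gfral, the hindbrain receptor for GDF15, gave 0 UMIs in all 5 libraries. A count of 3 UMIs would have been 0.290 and 0.353 CPM in frail cells, against 0.439, 0.516 and 0.196 CPM in control cells, so a lower level was not detectable. Ret, the signalling partner of GFRAL and of the GDNF receptors, had 38.8 and 9.895 CPM in frail cells, against 29.8, 19.1 and 43.01 CPM in control cells, with overlap.

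Differences between the frail effect in the chosen cells and that in the remaining gated Pdgfra cells were tested with limma on within-library log2 differences. None of 13689 genes passed (0.0%); 696 had an unadjusted p under 0.05, and the smallest adjusted p was 0.0568. That value belonged to Smpd3, a neutral sphingomyelinase, with a log2 fold change of -0.21 in Smoc2 Mme cells and -1.88 in the remaining cells. Daglb, an enzyme that makes the endocannabinoid 2-arachidonoylglycerol, had 11.8 and 13.7 CPM in frail cells, against 17.4, 15.4 and 17.1 CPM in control cells. In the remaining gated cells it had 39.9 and 29.2 CPM in frail mice, against 110, 111 and 110 CPM in control mice. The difference of the log2 fold changes was 1.32 (limma adjusted p = 0.164). Lyve1, a hyaluronan receptor of lymphatic vessels and macrophages, had log2 fold changes of -2.39 in the chosen and -0.33 in the remaining cells (limma adjusted p = 0.207). For Cxcl9 the log2 fold change was -1.51 in the chosen and -0.59 in the remaining cells (limma adjusted p = 0.164).

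Dmkn, a gene of skin keratinocytes, had 0.293 and 0 CPM in frail cells, against 1.197, 2.48 and 69.8 CPM in control cells. Its high value was that of control 3, the library with keratinocyte RNA, and endothelial barcodes of that library held 85.1 CPM.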

How the data were processed

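The 5 libraries analysed came from 2 frail and 3 control mice, and p-values measure the spread between them. The authors deposited raw UMI counts of each gene in each barcode, with Cell Ranger 7.0.0 named in the headers. The submitters' processing notes list bcl2fastq 5.01, Seurat 4.1.2 and GRCm38. No ambient RNA correction is recorded, and doublets were not removed here (Scrublet scores were used only for an alternative). Counts of the chosen cells were summed per library. Depth was 5814902 to 15339978 UMIs per library.

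Genes were tested with edgeR 4.0.16 (quasi-likelihood, TMM factors, filterByExpr, adjusted p under 0.05) in R 4.3.3, with library as a block between cell sets. Differences of effects used limma 3.58.1 (prior count 2). DESeq2 1.42.0 was an alternative. CPM are TMM-scaled; sets and endothelial values use other factors or none. Shares were tested by exact permutation over all assignments, and their Wilson intervals came from scipy 1.17.1. Figures used matplotlib 3.10.9. Positions follow GENCODE M21; 94.1% of gene IDs matched. Scripts were tested on simulated data.

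The cells and the 22 gene lists were chosen with earlier results of these data known. The 19 rule genes stayed in fits but out of counts. Named genes were those apart between groups (average log2 CPM at least 3), called or, up to 8 a direction, of smallest p; per list, the 2 of highest CPM and the 2 of smallest p; Gdf15, Gfral, Ret, Aldh1l1, Daglb, Il6, Dmkn and Ptx3; between sets, 12 a direction (average log2 CPM at least 5); and the 6 of smallest p for differences. Other list members were named after their values were seen. The results of some named genes are not reported here. "Apart" means that no frail library overlapped a control library.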

Additional observations from a re-analysis of the deposited data

How the results depend on the processing

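With 2 frail and 3 control libraries, the count of called genes was the least stable value. Of 13794 genes edgeR called 2. It called 6 without the highest Scrublet scores, 1 with cells thinned, 184 with no low-count filter and 60 with replicate number as a block, DESeq2 called 57, and leaving out 1 library gave 0 to 17. With 2 frail libraries it cannot be decided whether replicate numbers paired libraries. Deviations correlated at -0.0805 for number 1 and 0.128 for number 2. The count stayed at 2 without TMM factors, with at least 4 of the 5 genes, with no Cdh5, Ptprc or Rgs5 UMI, with 5% mitochondrial UMIs and in cells without macrophage UMIs (added after seeing the data). The share of retained barcodes differed by 1.19 points, or -0.51 to 3.44 leaving out 1 library (-0.51 without frail 1, -0.40 without control 2), and the gated share by 6.37, or 2.43 to 10.3. Calls between sets numbered 6253 against Pi16 cells (5488 to 6594) and 3251 against Gdf10 cells (2641 to 3617). Differences of effects numbered 0, and 0 to 9 leaving out 1 library, 9 of them without frail 1 and 1 without control 3. Among single genes 881 comparisons kept their side, 61 gained and 3 lost the call, and 2 turned: Myh11 to -0.027 without macrophage UMIs, and Ret, whose fold ran from -1.64 without frail 1 to 0.33 without frail 2. Of list medians, 202 moved by less than the spread and 18 by more. The cause was not tested. Depth limits genes under a few CPM.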
